A study of Mus musculus with 6 samples.

Results

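The genes described here are 9 complement components and receptors, taken by symbol from a table of 57010 genes: C1qa, C1qb, C1qc and C4b of the classical pathway, the central component C3, Cfb and Cfp of the alternative pathway, and the anaphylatoxin receptors C3ar1 and C5ar1. All 9 were found, and all 9 passed the filter on low counts that left 14575 genes for testing. RNA came from CD45+CD90.2- cells of the heart, that is, leukocytes outside the T cell gate. All 6 libraries came from mice of genotype Ova DTG, which make ovalbumin under cardiac restriction, and all of these mice had been given naive OTI CD8 T cells, which recognise ovalbumin. The promoter behind the restriction and the age of the mice could not be taken from the labels. The 3 libraries labelled ICI (immune checkpoint inhibitor) came from mice given 200 µg of antibody against CTLA-4 and 200 µg against PD-1. The 3 labelled isotype came from mice given isotype antibody, with no dose stated. Myocarditis is named in the titles of both groups, and the labels call replicates 1, 2 and 3 of each group biological replicates without saying which animals they came from, so p-values measure the spread between these libraries.

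Complement is a cascade of plasma proteins that marks surfaces for clearance. C1q binds immune complexes and dying cells and, with the proteases C1r and C1s, cleaves C4 and C2 into the classical C3 convertase. In the alternative pathway factor B joins deposited C3b to form a second convertase, and properdin holds it together, while regulators on cell membranes take it apart. The fragments C3a and C5a act on leukocytes through C3aR1 and C5aR1. The liver makes most circulating components, while macrophages are a main source of C1q and can make C3 and factor B locally.

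Total counts ran from 21528274 to 30736316 per library, and replicate 3 of each group was the one with more Xist than Y-linked counts. No gene was targeted, so no transcript checks the treatment labels, and groups are named by them throughout. Whether the labels of the groups were exchanged was not tested, and an exchange would turn every direction given here. Markers of several cell types separated the groups. All 10 resident macrophage markers were called higher (edgeR adjusted p under 0.05) in the libraries labelled ICI (summed level 9999.3 to 11739.6 CPM, counts per 1000000 of the library total, against 258.8 to 330.7), and all 10 interferon gamma response genes were called lower (1491.7 to 3404.4 CPM against 6477.4 to 8003.0). Of 8 monocyte markers 6 were lower and 1 was higher (1954.9 to 2179.7 CPM against 4792.1 to 9595.4). Chil3 alone averaged 113.0 against 3941.3 CPM. These counts stand beside 35.0% called higher and 33.9% called lower over all genes tested. Hepatocyte transcripts were at or near 0, with at most 0.186 CPM over 6 markers and Alb, Serpina1c and Fgb at 0 in every library. T cell markers, outside the gate, summed to 23.2 to 35.9 CPM against 4.7 to 6.51 CPM, with 3 called higher and 1 lower of 5 tested. Most of the sum was Cd4 (means of 14.3 against 0.621 CPM) and Lck (11.9 against 2.99 CPM). Cd3g was also called higher (0.919 against 0.256 CPM), Cd3e was not called (0.504 against 0.363 CPM) and Trac was lower (0.282 against 0.57 CPM). In bulk RNA fewer cells of a type and less RNA per cell cannot be told apart.

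RefSeq promoter windows (250 bases before to 50 after the annotated start, build GRCm38.p6) were at hand for 6 of the 9 genes. Those of C1qb and C1qc, neighbours in the C1q cluster, are shown with that of C3, the component with the largest difference among those with a window (Cfb has none here), and that of C5ar1, the receptor with the larger difference. They are written 5′ to 3′ on the strand of the gene, with motif matches in capitals. C1qb lies at chr4:136886151-136886450 (minus strand), C1qc at chr4:136892865-136893164 (minus strand), C3 at chr17:57228087-57228386 (minus strand) and C5ar1 at chr7:16259289-16259588 (minus strand).
C1qb: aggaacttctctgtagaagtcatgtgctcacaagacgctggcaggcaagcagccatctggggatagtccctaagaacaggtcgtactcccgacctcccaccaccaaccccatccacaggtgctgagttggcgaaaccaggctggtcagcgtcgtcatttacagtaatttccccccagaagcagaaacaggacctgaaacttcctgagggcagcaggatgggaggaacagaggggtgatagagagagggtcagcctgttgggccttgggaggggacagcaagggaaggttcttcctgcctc
C1qc: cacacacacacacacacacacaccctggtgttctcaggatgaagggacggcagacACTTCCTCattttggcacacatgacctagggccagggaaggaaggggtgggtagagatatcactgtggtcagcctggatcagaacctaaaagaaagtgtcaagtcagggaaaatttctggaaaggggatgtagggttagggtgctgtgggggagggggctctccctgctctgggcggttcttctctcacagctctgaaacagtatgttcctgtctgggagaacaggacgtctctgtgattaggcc
C3: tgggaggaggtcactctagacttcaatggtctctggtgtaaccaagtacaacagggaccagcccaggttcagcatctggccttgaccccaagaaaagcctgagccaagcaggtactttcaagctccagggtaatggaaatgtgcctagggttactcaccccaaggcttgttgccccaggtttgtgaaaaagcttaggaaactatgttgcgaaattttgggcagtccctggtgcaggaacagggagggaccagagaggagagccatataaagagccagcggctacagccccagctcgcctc
C5ar1: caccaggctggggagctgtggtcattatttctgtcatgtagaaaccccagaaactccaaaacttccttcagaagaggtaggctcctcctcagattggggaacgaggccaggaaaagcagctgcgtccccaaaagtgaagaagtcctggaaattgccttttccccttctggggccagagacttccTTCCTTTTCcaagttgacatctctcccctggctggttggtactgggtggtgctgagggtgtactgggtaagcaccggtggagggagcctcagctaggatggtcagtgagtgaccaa
Both strands were searched for the interferon gamma element GAS (TTCNNNGAA, the same on both strands), the interferon element ISRE (GAAANNGAA), the PU.1 site of myeloid genes (GAGGAAGT) and the NF-kB site (GGGANTTTC). The capitals in C1qc are a PU.1 match on the reverse strand, 195 bases before the start. The capitals in C5ar1 are an ISRE match on the reverse strand, 66 bases before the start. None of the 4 motifs was found in the windows of C1qb, C3, Cfp or C3ar1. Of all 32851 windows 8.3% held GAS, 8.56% ISRE, 3.2% PU.1 and 1.11% NF-kB. A match describes these letters only.

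C3 and Cfb were far lower in the libraries labelled ICI, C5ar1, C1qa and C3ar1 were modestly higher, and C1qb, C1qc, C4b and Cfp were not called. Calls used edgeR's quasi-likelihood test over all genes at a Benjamini-Hochberg adjusted p under 0.05. Of the 9 genes 5 were called, 3 higher and 2 lower, where 68.9% of all genes tested were called (35.0% higher and 33.9% lower). That balance depends on the scaling, as the 5102 genes higher and 4938 lower became 6155 and 3849 with upper-quartile factors and 6255 and 3724 with library totals alone. The median log2 fold change of the 9 was 0.00, beside 0.03 over all genes. C3 and Cfb fell by more than 4-fold, as did 2.79% of all genes. Against a minimum change of 1.5-fold C5ar1, C3 and Cfb kept their calls, and C1qa and C3ar1 lost theirs (adjusted p = 1 each). CPM of the groups did not overlap for 7 of the 9 genes, and for 73.5% of all genes.

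**Figure D1:**
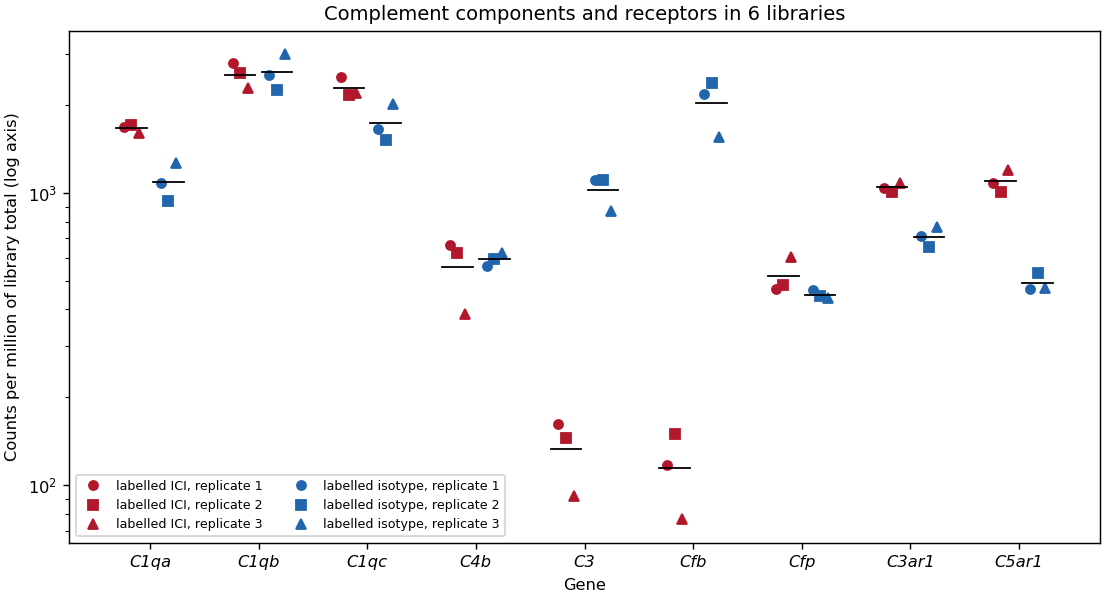
CPM of each gene on a log axis, red for libraries labelled ICI and blue for those labelled isotype; marker shapes give the replicate and black lines the group means. Cfb and C3 are far apart between the groups, at 76.4 to 149.8 against 1560.2 to 2376.6 CPM for Cfb.

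C1q is built from equal numbers of A, B and C chains, and per kilobase of transcript its genes had the highest levels of the 9 in both groups. C1qa (ENSMUSG00000036887) was at 1684.0, 1707.6 and 1607.1 CPM in replicates 1, 2 and 3 labelled ICI and at 1079.9, 937.2 and 1264.9 CPM in those labelled isotype. Every library labelled ICI was above every library labelled isotype. The fitted difference was a 1.33-fold rise (edgeR adjusted p = 0.00824; log2 fold change 0.41 with an SE of 0.11), smaller than the ratio of CPM means because the TMM factors, 1.052 to 1.105 in the libraries labelled ICI and 0.9209 to 0.9523 in the others, lower the former.

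C1qb (ENSMUSG00000036905) was at 2779.5, 2575.9 and 2287.6 CPM in the libraries labelled ICI and at 2541.5, 2254.9 and 2983.8 CPM in those labelled isotype. The groups overlapped, and the log2 fold change of -0.22 (95% interval -0.50 to 0.06, edgeR adjusted p = 0.138) was not called. C1qc (ENSMUSG00000036896) was at 2499.9, 2174.1 and 2202.6 CPM against 1663.1, 1518.0 and 2027.3 CPM. Its groups did not overlap on library totals, but the normalized difference was not called (log2 fold change 0.20, 95% interval -0.06 to 0.47, edgeR adjusted p = 0.156). It was called with upper-quartile factors (adjusted p = 0.0182) and with library totals alone (0.0121), settings under which the middle gene of the whole table moves from 0.03 to 0.21 and 0.23 on the log2 scale.

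Shares within a library do not depend on such scaling, and the mix of the chains differed. C1qa took 24.2%, 26.4% and 26.4% of the C1q counts in the libraries labelled ICI, against 20.4%, 19.9% and 20.2% for isotype. C1qb took 39.9%, 39.9% and 37.5% against 48.1%, 47.9% and 47.5%, and C1qc 35.9%, 33.7% and 36.1% against 31.5%, 32.2% and 32.3%. Shares of C1qa and C1qc were thus higher and that of C1qb lower in every library labelled ICI, by 5.50, 3.23 and -8.73 percentage points on the means. Each exact two-sided permutation test gave p = 0.1, the smallest that 3 against 3 libraries allow (adjusted p = 0.1 over 9 shares and ratios). The widest 95% Wilson interval on a share, 47.6% to 48.2% for C1qb in isotype replicate 2, covers counting error only. On library totals, which do depend on scaling, the 3 genes together held 0.651% ± 0.0435 of the counts in the libraries labelled ICI. They held 0.542% ± 0.0792 in those labelled isotype (SD, n = 3 each). The groups overlapped, at 0.61% in ICI replicate 3 and 0.628% in isotype replicate 3.

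**Figure D2:**
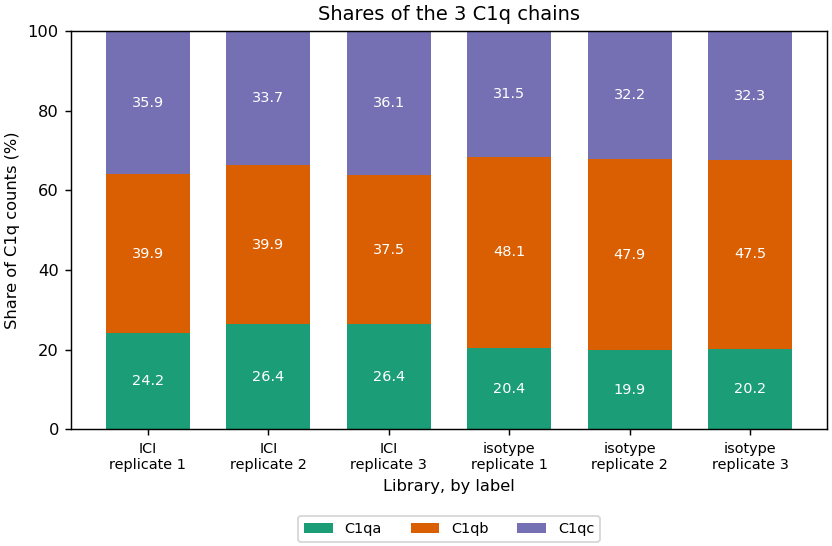
Share of each chain gene in the summed counts of C1qa, C1qb and C1qc, in percent, for each library. C1qb holds 37.5% to 39.9% in the libraries labelled ICI and 47.5% to 48.1% in those labelled isotype.

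Of 8 general macrophage markers 4 were called higher and 2 lower, where 35.0% of all genes tested were called higher and 33.9% lower. These 8 markers summed to 11963.1 to 16892.1 CPM against 5412.6 to 7047.8 CPM. The 10 resident macrophage markers had a median log2 fold change of 6.99. The part of both marker lists in the C1q values was not tested. Over 8632 genes of at least 10 CPM outside the complement lists, the centred log2 profiles nearest to the mean of the 3 chains were those of Laptm4a, Ppp2r3d, Slc17a5, Pomt1 and Tmem59, at root mean square differences of 0.038 to 0.055 over the 6 libraries. Their own log2 fold changes were 0.08 to 0.20, near the middle of all genes.

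The genes of the proteases that work with C1q were lower in the libraries labelled ICI. C1ra, which encodes C1r, was at 34.9, 36.9 and 24.1 CPM in the libraries labelled ICI against 139.5, 129.7 and 114.0 CPM, a 4.58-fold fall (log2 fold change -2.20, SE 0.18, edgeR adjusted p = 1.72e-05). C1s1, which encodes C1s, was at 4.69, 2.78 and 1.39 CPM against 9.58, 11.9 and 6.31 CPM, 3.55-fold lower (edgeR adjusted p = 0.00695). Both pairs of groups were separate. C1q counts were 162.7 to 239.1 for each count of C1r and C1s in the libraries labelled ICI and 33.2 to 52.1 in those labelled isotype (log2 difference 2.27, exact two-sided permutation p = 0.1). The near copies C1rb and C1s2 held at most 7 counts in a group.

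C4b (ENSMUSG00000073418), which encodes C4, was at 665.0, 622.7 and 385.6 CPM in the libraries labelled ICI and at 565.4, 595.1 and 622.3 CPM in those labelled isotype. The lowest library, ICI replicate 3, lay below the other 5, and the groups overlapped. The difference was not called (log2 fold change -0.29, SE 0.21, 95% interval -0.77 to 0.20, edgeR adjusted p = 0.249). Its near copy C4a, whose reads could be split from it only where the genes differ, held 20 and 25 counts in the groups. C2, which joins C4 in the classical convertase, was at 22.9, 26.3 and 17.1 CPM against 3.86, 3.85 and 6.86 CPM, a 3.95-fold rise (edgeR adjusted p = 0.000197). The ratio of C4b to C2 counts was accordingly 22.6 to 29 in the libraries labelled ICI and 90.7 to 154.5 in the others.

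C3 (ENSMUSG00000024164) stood at 162.5, 145.7 and 91.6 CPM in the libraries labelled ICI and at 1107.7, 1109.9 and 868.4 CPM in those labelled isotype. The highest library of the first group was far below the lowest of the second. The fall was 8.85-fold (log2 fold change -3.15, SE 0.26, 95% interval -3.76 to -2.53, edgeR adjusted p = 4.43e-05), the 141st of 4938 called falls by size. Over all alternatives the fold ran from 7.53 to 10.0. Nearest to C3 in profile were Prdx5 (a peroxiredoxin), Hk3 (a hexokinase), Glrx (a glutaredoxin), Sirpb1c and Lap3 (a leucine aminopeptidase), at differences of 0.206 to 0.249.

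Cfb (ENSMUSG00000090231), which encodes factor B, had the largest difference of the 9. It was at 117.4, 149.8 and 76.4 CPM in the libraries labelled ICI and at 2178.1, 2376.6 and 1560.2 CPM in those labelled isotype. The groups were separate, with replicate 2 highest and replicate 3 lowest in each. The fall was 20.4-fold (log2 fold change -4.35, SE 0.33, 95% interval -5.17 to -3.54, edgeR adjusted p = 5.7e-05), the 55th by size among the called falls, and ran from 17.2-fold to 24.2-fold over all alternatives.

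Nearest to Cfb in profile were Ly6i, AW112010, the interferon gamma induced chemokine Cxcl9, the arginine synthesis enzyme Ass1 and the VEGF receptor Flt1, at differences of 0.159 to 0.338 (log2 fold changes -4.43 to -3.84). Ly6i has near copies in its family, so its own count is uncertain. The summed interferon gamma response genes had the same order of libraries as Cfb within each group. They were at 2173.5, 3404.4 and 1491.7 CPM for ICI replicates 1 to 3 against 7556.7, 8003.0 and 6477.4 CPM for isotype. C3 had that order only for isotype. So did the summed monocyte markers, at 2179.7, 1954.9 and 2062.5 CPM for ICI against 7412.2, 9595.4 and 4792.1 CPM for isotype. Replicate 3, the lowest for Cfb in each group, was also the library with more Xist than Y-linked counts. Orders of 3 libraries per group cannot tell these apart. The part of the interferon gamma response genes and of the monocyte markers in the fall of Cfb and C3 was not tested. C2 is the gene next to Cfb on chromosome 17, and the libraries carry no strand, so reads across their boundary could not be told apart. C2 rose where Cfb fell.

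Cfp (ENSMUSG00000001128), which encodes properdin, was at 468.8, 484.7 and 605.3 CPM in the libraries labelled ICI and at 465.5, 444.0 and 438.2 CPM in those labelled isotype. ICI replicate 3 was the highest library. The normalized log2 fold change was 0.00 (SE 0.10, 95% interval -0.22 to 0.23, edgeR adjusted p = 0.975), although the CPM of the groups just failed to overlap. The sign turned with the setting, to -0.09 without ICI replicate 3. Against Cfb its balance shifted, with 3.24 to 7.93 counts of Cfp for each count of Cfb in the libraries labelled ICI and 0.187 to 0.281 in those labelled isotype. The count ratio of C3 to Cfb also differed, at 0.973 to 1.38 against 0.467 to 0.557. These ratios separated the groups, each at an exact two-sided permutation p = 0.1. Profiles nearest to Cfp were those of Rab11a, Chic2, Guf1, Zw10 and Rfx1, at 0.051 to 0.056.

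C5ar1 (ENSMUSG00000049130), the receptor for C5a, was at 1087.4, 1008.0 and 1202.8 CPM in the libraries labelled ICI and at 469.7, 533.4 and 475.2 CPM in those labelled isotype. The groups were far apart for a rise of this size. It was 1.94-fold (log2 fold change 0.95, SE 0.10, 95% interval 0.74 to 1.17, edgeR adjusted p = 1.61e-05), between 1.85-fold and 2.23-fold over the alternatives. C3ar1 (ENSMUSG00000040552), the receptor for C3a, was at 1044.5, 1010.0 and 1085.1 CPM against 711.9, 652.5 and 766.3 CPM. Its groups were separate too, with a smaller rise of 1.28-fold (log2 fold change 0.36, SE 0.09, edgeR adjusted p = 0.00417).

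The 2 receptors were near parity in the libraries labelled ICI, with 0.998 to 1.11 counts of C5ar1 for each count of C3ar1, and below it in those labelled isotype, at 0.62 to 0.817 (log2 difference 0.59, exact two-sided permutation p = 0.1). The transcripts of C3ar1 and of C3, the source of C3a, moved apart. C3 held 0.0844 to 0.156 counts for each count of C3ar1 in the libraries labelled ICI and 1.13 to 1.7 in those labelled isotype. Levels of the fragment C3a were not measured. Neutrophils carry much C5ar1 and also Cfp. Of 9 neutrophil markers 5 were called higher, 1 (Ly6g) was called lower and 3 were not called. Over all genes tested, 35.0% were called higher and 33.9% lower. Summed on library totals, these markers were at 540.8 to 591.0 CPM against 396.0 to 492.3 CPM. The part of neutrophils in the rise of C5ar1 was not tested.

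As CPM per kilobase of the longest annotated transcript, the order of the levels began alike in both groups, with C1qb, C1qc and C1qa (means of 2341.6, 1905.4 and 1602.2 for ICI and 2383.7, 1443.2 and 1051.9 for isotype). Cfb came 4th in the libraries labelled isotype at 740.9 ± 155 (SD, n = 3), above Cfp at 274.6 ± 8.8, and 8th in those labelled ICI at 41.6 ± 13.4. C3 was last in the libraries labelled ICI at 25.9 ± 7.21, and 6th in the others at 200.3 ± 27. In between, C5ar1 (432.8), Cfp (317.6), C3ar1 (243.1) and C4b (103.7) followed each other in the libraries labelled ICI. C5ar1 (194.0), C3ar1 (165.0) and C4b (110.5) closed the order in those labelled isotype. Ranges of neighbours overlapped for Cfb and C3 in the libraries labelled ICI, and for C3 and C5ar1 in those labelled isotype; the other neighbours were separate.

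**Figure D3:**
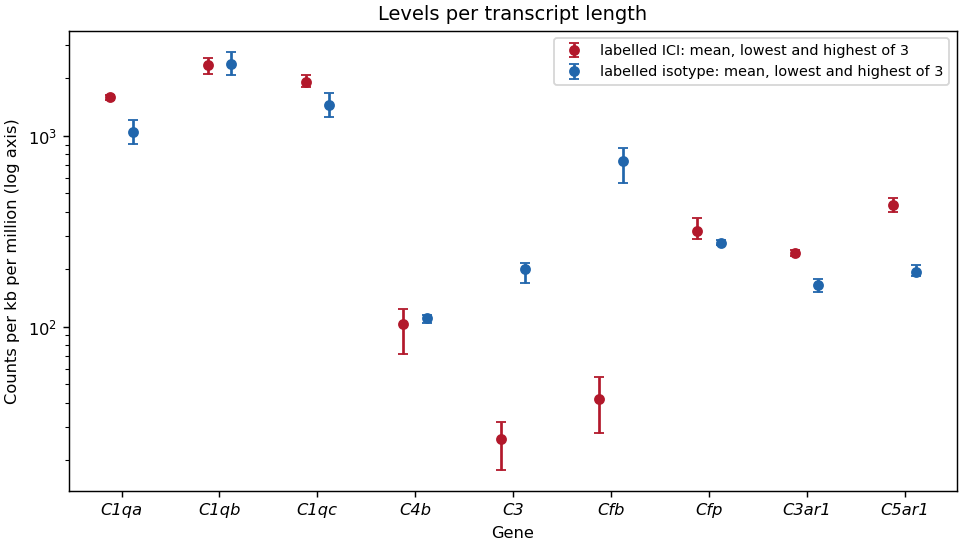
Level of each gene in CPM per kilobase of its longest transcript (log axis), as the mean with the lowest and highest of 3 libraries per group. The C1q genes lead in both groups, and Cfb lies at 41.6 in the libraries labelled ICI and 740.9 in those labelled isotype.

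The other complement genes were read from a list of 48. Of these 23 passed the filter, 11 were called higher, 9 were called lower and the last 3 missed the threshold. Over all genes tested, 68.9% were called, 35.0% higher and 33.9% lower. The middle log2 fold change of the 23 was 1.05, beside 0.03 over all genes. A total of 11 had no count in any library, among them Mbl1, Mbl2, C8a, C8b and Cfi, the gene of the protease factor I. Hc, which encodes C5, held 7 counts in the libraries labelled ICI and 0 in the others, and C9 held 1 in each group. C7 held 138 and 2, the former as 79, 57 and 2 counts in ICI replicates 1, 2 and 3. C6 of the terminal pathway was at 18.4, 14.3 and 7.71 CPM in the libraries labelled ICI against 0.237, 0.122 and 0.26 CPM, a 54.6-fold rise (edgeR adjusted p = 2.48e-05).

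Of 8 membrane regulators 4 were tested, of which 3 were called higher and 0 lower, where 35.0% of all genes tested were called higher. Cd59a, which blocks the membrane attack complex, was the one not called, at a log2 fold change of -0.91. Cd55, the decay-accelerating factor that splits convertases on cell membranes, was at 30.3, 35.3 and 79.8 CPM in the libraries labelled ICI against 0.677, 0.365 and 0.716 CPM, a 69.3-fold rise (edgeR adjusted p = 0.000224), beside 11.1% of all genes that were called and rose more than 4-fold. Cr1l, the rodent membrane regulator Crry, rose 1.27-fold (122.6 ± 5.46 against 84 ± 2.41 CPM, SD, n = 3 each, edgeR adjusted p = 0.00291), but was not called when tested for more than 1.5-fold (adjusted p = 1). Of 11 soluble regulators 3 were tested, of which 2 were called higher and 0 lower.

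Serping1, the C1 inhibitor, was not called (log2 fold change 1.34, SE 0.56, edgeR adjusted p = 0.0785). It was at 22.5, 8.81 and 5.81 CPM in the libraries labelled ICI and at 4.77, 3.49 and 4.52 CPM in those labelled isotype, and 1.48-fold higher without ICI replicate 1. That library also held the most fibroblast marker RNA, 199.5 CPM over 8 genes against 64.4 and 67.1 CPM in its group. The libraries labelled isotype held 10.7 to 14.9 CPM. Of the 8 genes 7 were called higher and 1 was not called, where 35.0% of all genes tested were called higher. Fibroblasts make C3, C4, C1r and C1s as well as C1 inhibitor. Between the groups, their markers were higher where C3, C1ra and C1s1 were lower. Within the libraries labelled ICI, replicate 1 also had the highest C3 (162.5 CPM) and C1s1 (4.69 CPM). C1ra was highest there in replicate 2 (36.9 CPM). The part of fibroblasts in these results was not tested.

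**Figure D4:**
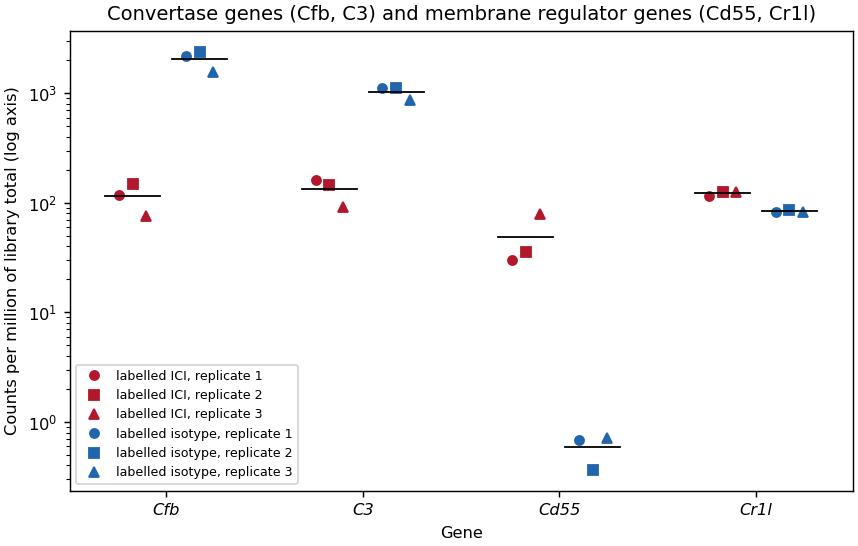
CPM on a log axis for Cfb and C3 and for the membrane regulator genes Cd55 and Cr1l; symbols as in the plot of the 9 genes. Cfb and C3 are higher in the libraries labelled isotype, and Cd55, at 30.3 to 79.8 against 0.365 to 0.716 CPM, is higher in those labelled ICI.

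Of the 7 other receptors in the list 3 were called higher and 4 lower, where 35.0% of all genes tested were called higher and 33.9% lower. C5ar2, the second C5a receptor, was at 32.6, 29.6 and 36.1 CPM in the libraries labelled ICI against 6.09, 6.21 and 5.82 CPM, a 4.71-fold rise (edgeR adjusted p = 2.39e-07), and so rose with C5ar1, its neighbour on chromosome 7. Vsig4, a macrophage receptor for C3b, rose 656-fold on 9 isotype counts, and 1764-fold without isotype replicate 1. Cr2, complement receptor 2 of B cells, rose 67.9-fold (181.6-fold without isotype replicate 3), and all 6 B cell markers were higher with it, at 832.6 to 1642.9 CPM against 53.5 to 96.4 CPM.

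The integrin chains of complement receptors 3 and 4 were lower. Itgb2, their shared chain, was at 716.0, 710.0 and 715.4 CPM in the libraries labelled ICI against 1907.2, 2083.7 and 1754.5 CPM, a 3.09-fold fall (edgeR adjusted p = 7.16e-07). Itgam fell 2.03-fold (edgeR adjusted p = 5.32e-05) and Itgax 1.63-fold (0.00043). When tested for more than 1.5-fold, Itgax was no longer called (adjusted p = 0.137). Cd93, once described as a C1q receptor, was 1.28-fold lower at an edgeR adjusted p = 0.0402, a call that 8 alternatives ended (adjusted p of up to 1).

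In the lectin pathway Fcna, ficolin A of macrophages, rose 163-fold from 0.66 ± 0.19 to 126.7 ± 11.2 CPM (SD, n = 3 each, edgeR adjusted p = 1.99e-09). Fcnb and the protease Masp1 were called lower (21 against 51 counts and 81 against 215 counts, the latter with overlapping CPM), and Masp2 was not called. Cfd, the protease that activates factor B, held 1 count in all 6 libraries.

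**Figure D5:**
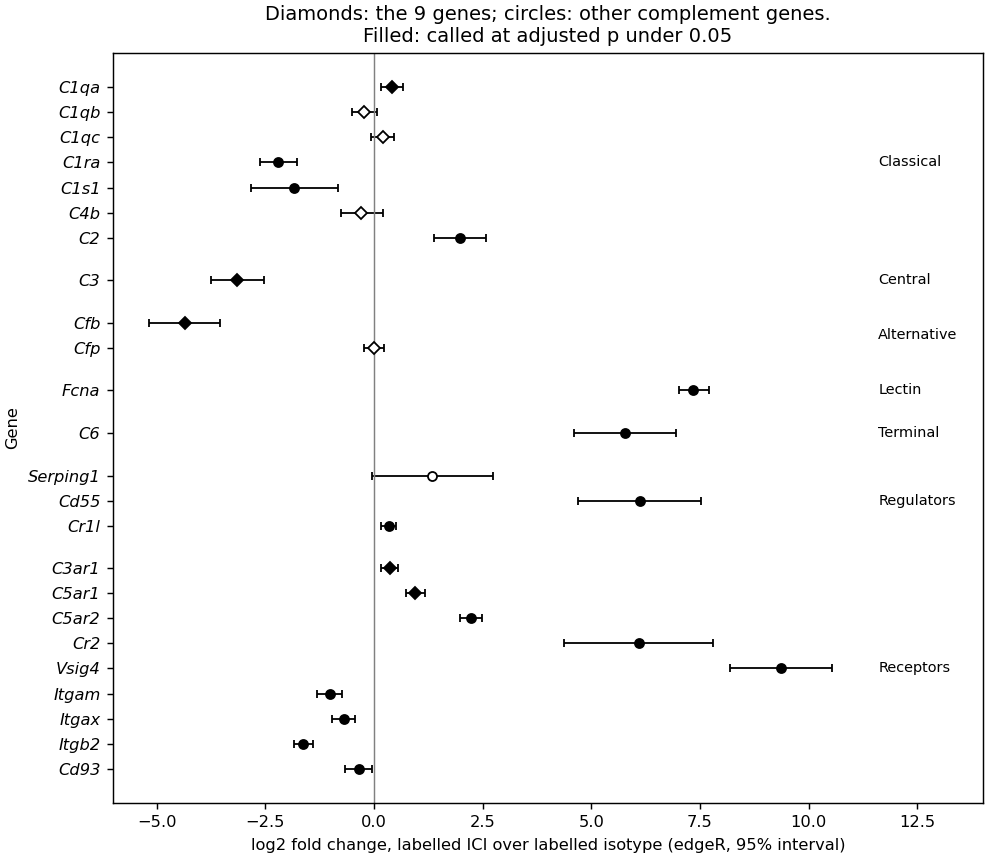
log2 fold change of the libraries labelled ICI over those labelled isotype with its 95% interval, for the 9 genes (diamonds) and 15 other complement genes whose higher group averaged 5 CPM or more (circles); filled symbols were called. Cfb (-4.35) and C3 (-3.15) lie furthest to the left and Vsig4 (9.36) furthest to the right.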

How the data were processed

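RNA from sorted heart leukocytes was measured in 6 libraries, 3 labelled ICI and 3 labelled isotype, made without strand information from SMART-seq cDNA per the labels' protocols. The authors deposited raw counts per Ensembl gene; STAR 2.7.10a, Salmon 1.10.1 and build GRCm39 are named in the submitters' processing notes, while the annotation, the counting step and any filtering are not stated, nor whether counts are rounded estimates. Symbols were matched for 52029 identifiers (91.3%). Lengths and promoters come from GRCm38 annotation and are used by gene only.

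Counts were tested as deposited with edgeR 4.0.16 (R 4.3.3, limma 3.58.1): TMM factors, filterByExpr (minimum count 10), robust bias-adjusted quasi-likelihood F test, Benjamini-Hochberg over 14575 genes holding 99.9% of the counts. SE come from the fold change and F, intervals from the t distribution. CPM are on library totals. The procedure was tested on simulated data in which few genes were changed. Most genes were called here, so that test does not cover the choice of scaling or the error rate in these data. Ratios within libraries were compared by exact two-sided permutation tests. The alternatives were DESeq2 1.42.0, limma-voom, other factors, other filters, a replicate block, a sex term, a test against 1.5-fold and each library left out; edgeR's legacy fit was added after the data were seen. The members and lists were chosen with earlier results of these data known. The genes named are the 9 members, other complement genes whose higher group averaged 5 CPM or more, and the 5 nearest profiles (RMS of centred log2 CPM) to C1q, C3, Cfb and Cfp; those with lower counts were named after their values were seen. Replicates of a group differed beyond sampling noise, with a chi-square of 12.8 to 35.34 per gene. One other gene of the complement list is not reported here and is left out of its counts. Same-numbered libraries were not treated as pairs.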

Additional observations from a re-analysis of the deposited data

How the results depend on the processing

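Of 408 refitted log2 fold changes of the 24 named genes, 383 kept their direction and side of the threshold, 12 fell short of it, 6 passed it and 7 changed sign. All sign changes were of Cfp, which was never called: limma-voom, the sex term, the replicate block and leaving out isotype replicate 2 gave -0.00, no filter -0.02, and leaving out ICI replicate 3 and isotype replicate 3 gave -0.09 and -0.05 (with single libraries left out, -0.09 to 0.06). Against a 1.5-fold change 3110 genes were higher and 2410 lower, with 1 of the 9 genes higher and 4 of the other complement genes lower. With the replicate block Serping1 was called (log2 fold change 1.17, adjusted p = 0.0336), as it was with DESeq2, library totals alone and without ICI replicate 3 (0.039, 0.0437 and 0.0122). The block changed no other call among the named genes. Deviations of same-numbered libraries correlated at 0.0345, 0.0619 and 0.128 across genes, and those of libraries with different numbers at -0.136 to 0.0901. With 3 libraries per group, these values cannot settle whether the numbers pair the libraries. Cd93 lost its call with upper-quartile factors, library totals alone, the strict filter, the 1.5-fold test and without ICI replicate 1 or 2 or isotype replicate 2 or 3. The 9 shares and ratios kept their direction with each library left out. Pairing allows no p below 0.25 there.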
